A study of Mus musculus with 23 samples.

Results

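The genes described here encode the Wnt ligands, their cell surface receptors and the secreted proteins that modulate them, measured by RNA sequencing in mouse ovary. They were chosen by symbol (Wnt, Fzd, Sfrp, Dkk, Dkkl1, Rspo, Lgr4 to Lgr6, Lrp5, Lrp6 and Wif1), with earlier results of these data known, and 45 of the 24716 genes in the count table matched. These are 17 ligands, 10 Frizzled receptors, 2 co-receptors, 4 R-spondins, 3 R-spondin receptors and 9 secreted inhibitors or related proteins. The study asked how genetic background and diet act together in mouse models of type 2 diabetes. Ovaries came from females of 3 inbred strains, C57BL/6J, the wild-derived CAST/EiJ and the obesity-prone NZO/HlLtJ, all labelled wild type and untreated. From 6 weeks of age they ate either a diet with 10% fat or one with 44% fat that was also high in sugar, both with fiber, and tissue was taken at 15 weeks. C57BL/6J on 10% fat had 3 libraries and each of the other 5 groups had 4. Whether libraries stem from different animals is not labelled, and the p-values speak only to how far these libraries varied.

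Wnt proteins are secreted lipid-modified signals that bind a Frizzled receptor together with the co-receptor Lrp5 or Lrp6, which stabilises beta-catenin and turns on TCF/LEF target genes, while other Wnts act without beta-catenin on cell polarity and movement. R-spondins bind Lgr4, Lgr5 or Lgr6 and raise the amount of Frizzled at the cell surface, whereas secreted Frizzled-related proteins (Sfrp) and Wif1 bind the ligands and Dickkopf proteins (Dkk) act mostly on the co-receptors. In the mammalian ovary Wnt4 and Rspo1 direct female gonad development, and Wnt4, Fzd1, Fzd4 and Sfrp4 are known from granulosa and luteal cells of the cycling adult.

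Wnt10b and Wnt4 were the ligands that passed for diet in the main analysis (edgeR adjusted p under 0.05), in CAST/EiJ. Wnt4 missed this threshold in 22 of 30 other analyses and Wnt10b in 6. The sequences before their starts are shown here. Both come from RefSeq on GRCm38.p6, which is the C57BL/6J genome, and 29 of the 45 genes had an entry in that promoter table. The Wnt10b stretch is the 250 bases at chr15:98778151-98778400 on the minus strand, just before the start that the annotation gives for the gene. The Wnt4 stretch is 104 bases at chr4:137277385-137277488 on the plus strand, and the capitals mark matches to the GC box.
Wnt10b: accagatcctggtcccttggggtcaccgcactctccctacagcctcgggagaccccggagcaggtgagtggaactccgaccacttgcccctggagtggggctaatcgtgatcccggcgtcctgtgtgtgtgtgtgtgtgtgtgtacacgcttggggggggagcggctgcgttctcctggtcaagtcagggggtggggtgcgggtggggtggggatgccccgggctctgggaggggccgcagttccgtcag
Wnt4: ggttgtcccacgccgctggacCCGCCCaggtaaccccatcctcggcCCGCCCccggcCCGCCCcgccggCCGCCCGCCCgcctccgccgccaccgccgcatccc
GC content was 66.8% before Wnt10b (median of all promoter windows of that length 52.4%) and 83.7% before Wnt4 (median 50%). Searched on both strands were the GC box GGGCGG, the TATA box TATAAA, the TCF/LEF core CTTTGA, the nuclear receptor half-site AGGTCA and the cyclic AMP response element TGACGTCA. The Wnt4 stretch held 5 GC box matches, all on the other strand, where they read CCGCCC, and some share bases. All windows compared were the first bases of each promoter entry, from its upstream end, so those of 104 bases stop short of the RefSeq start. Of 32851 promoter windows of that length 11% held a GC box, while 32.7% of windows of the Wnt10b length did. None of the 5 motifs was found in the Wnt10b stretch, and the other 4 were not found before Wnt4. TCF/LEF cores were present in 13.8% of windows of the longer and 6.51% of the shorter length.

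The 23 libraries held 31.94 to 45.85 M counts. Of the 45 genes, 39 passed the filter on low counts and were tested among 20189 genes. The other 6 were Wnt8a, Wnt8b, Wnt9b, Rspo4, Dkk1 and Wif1, none with more than 20 counts in any library. Markers of granulosa cells, luteal cells and oocytes were present in every library, in keeping with the tissue label. Replicate 2 of CAST/EiJ on 10% fat held far more oviduct epithelium RNA than any other, 5270 CPM (counts scaled to library size) summed over its markers, and the most adipocyte RNA (3460 against 104 to 936). C57BL/6J 44% fat replicate 1 had 310 CPM of oviduct markers, and the remaining libraries 31.5 to 123. C57BL/6J 10% fat replicate 2 differed from both others of its group in granulosa marker score (0.5 against -0.81 and -0.63, as median log2 CPM of the markers relative to the median library). The C57BL/6J libraries on 44% fat lay between, at 0.03 to 0.23. Oocyte markers summed to 143 CPM in C57BL/6J 10% fat replicate 1 and to 314 to 657 CPM in all other libraries. In whole ovary, fewer cells of a type and less RNA per cell cannot be told apart.

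Levels differed widely among ligands and among secreted inhibitors, and are compared between genes as CPM per kilobase of exon. Averaged over all 23 libraries, Wnt4 was highest among ligands, with 30.85 CPM per kilobase, followed by Wnt10b with 18.52, Wnt5a, which acts largely without beta-catenin, with 15.13, and Wnt6 with 10.83. The order was not the same in every group: in CAST/EiJ on 10% fat Wnt5a (15.8) was above Wnt4 (13.47), and Wnt10b (0.616) was below Wnt6 (6.566) and Wnt2b (5.743). Wnt10b was also below Wnt5a in CAST/EiJ on 44% fat (18.28 against 18.69). In NZO/HlLtJ on 10% fat it (12.04) was below Wnt5a (15.69) and Wnt6 (13.04). At the low end of the tested ligands were Wnt3a with 0.263, Wnt2 with 0.2 and Wnt7a with 0.11. Fzd1 (16.54) and Fzd4 (11.38) led the receptors on the same scale, and all 10 Frizzled genes passed the filter. Both co-receptors were abundant, with Lrp6 at 15.33 and Lrp5 at 12.34 CPM per kilobase. The R-spondins were lower, with 4.031 for Rspo1 and 2.037 for Rspo2, the latter known as an oocyte-secreted follicle growth factor. Lgr4 stood at 19.05, Lgr6 at 5.864 and Lgr5, known to mark ovarian surface epithelium, at 4.356. In the same mean over libraries Sfrp4 had the highest level of all 45 genes, 94.01 CPM per kilobase, ahead of Wnt4 and of the other inhibitors Sfrp1 with 25.15 and Dkk3, a divergent Dickkopf protein, with 21.87. This did not hold in CAST/EiJ, where Sfrp4 was at 4.147 on 10% fat, below Dkk3 (28.05) and Sfrp1 (12.08), and at 33.46 on 44% fat, below Wnt4 (40.23).

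**Figure D1:**
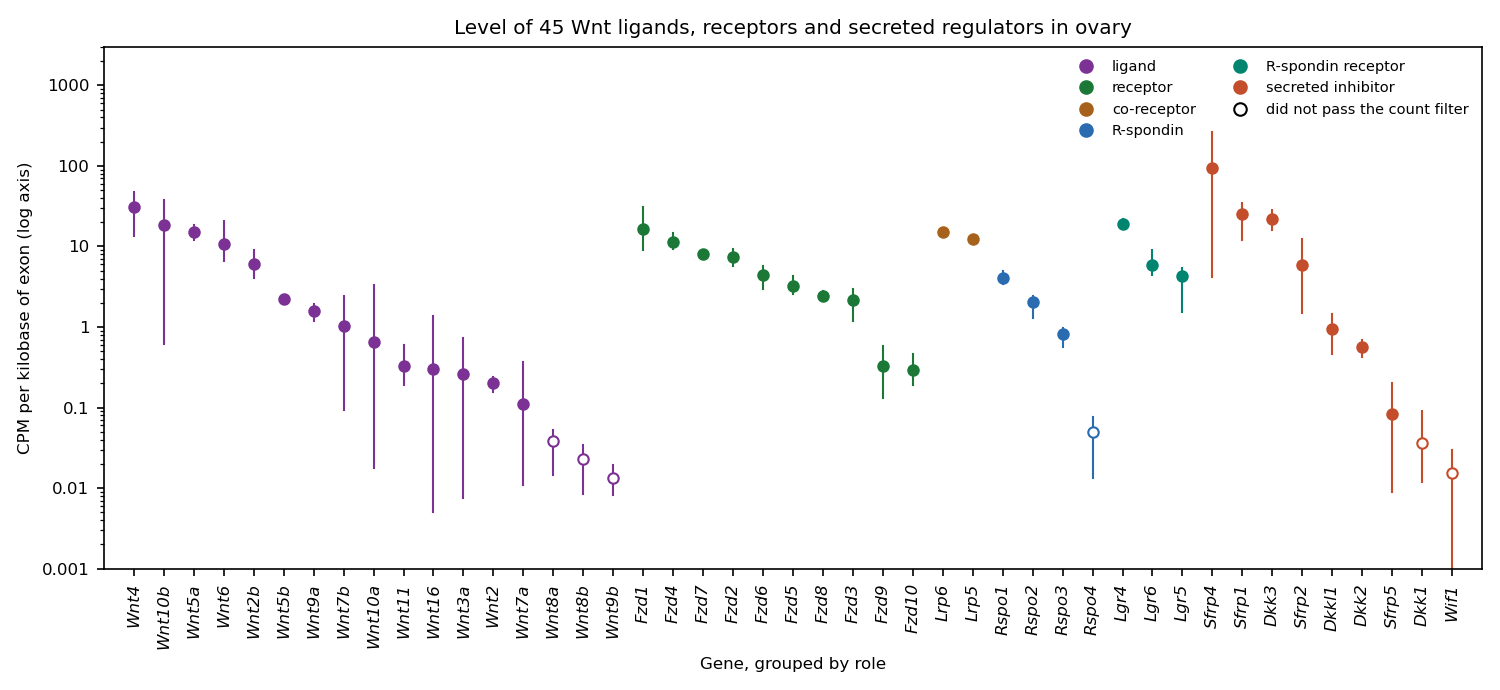
CPM per kilobase of exon (log axis) of the 45 genes, grouped by role; points are means over all 23 libraries, lines run from the lowest to the highest of the 6 group means, and a line reaching the bottom of the axis (Wif1) marks a group mean of 0. Sfrp4 has the highest mean, 94.01, and Wnt10b and Sfrp4 have long lines while those of Lrp5 and Lrp6 are short.

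The co-receptors were nearly level, with group means of 112 to 127 CPM for Lrp5 and 193 to 221 CPM for Lrp6. Wnt10b group means ran from 2.1 CPM in CAST/EiJ on 10% fat to 129 in C57BL/6J on 10% fat, and those of Sfrp4 from 17.3 CPM in CAST/EiJ on 10% fat to 1111 in C57BL/6J on 44% fat. CPM here and below are scaled by trimmed mean of M-values (TMM), and fold changes come from edgeR's quasi-likelihood test, with p-values adjusted by Benjamini-Hochberg over all 20189 genes and a threshold of 0.05.

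In CAST/EiJ ovary, 2 of the 39 tested genes rose with 44% fat and none passed in the other direction, that is 5.13% of the set. Over all genes 0.525% passed as higher, 0.0991% as lower and 0.624% in either direction. Both were ligands, Wnt10b and Wnt4. Wnt10b, a ligand known to hold back fat cell formation, is on chromosome 15 at 98771753 to 98778150 (minus strand). On 10% fat the CAST/EiJ libraries had 2.32, 0.516, 5.36 and 0.184 CPM of Wnt10b, and on 44% fat 79.6, 19.1, 128 and 21.7. All 4 libraries on 44% fat lay above all 4 on 10% fat, and within the 44% fat group replicates 1 and 3 were higher than the other two. The difference was 29.3-fold (log2 4.87, SE 0.96, edgeR adjusted p = 0.022). In C57BL/6J the Wnt10b values were 227, 22.6 and 137 CPM on 10% fat and 166, 101, 127 and 61.5 on 44% fat. In NZO/HlLtJ they were 35.5, 67.6, 25.5 and 35.2 on 10% fat and 60.8, 49.5, 5.36 and 69.9 on 44% fat. Diet groups overlapped in both of these strains, and the highest CAST/EiJ library on 10% fat (5.362) was level with the lowest of all other libraries, NZO/HlLtJ 44% fat replicate 3 (5.358).

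Wnt4, the ligand required for female gonad development, lies on chromosome 4 at 137277489 to 137299726 (plus strand). CAST/EiJ libraries had 54, 42.7, 77.3 and 52 CPM of Wnt4 on 10% fat and 208, 95.3, 277 and 94.3 on 44% fat. The diet groups again did not overlap, and replicates 1 and 3 on 44% fat were again the higher ones. Wnt4 was 2.99-fold higher on 44% fat (log2 1.58, SE 0.35, edgeR adjusted p = 0.0454). C57BL/6J had 280, 78.7 and 245 CPM on 10% fat and 139, 157, 131 and 150 on 44% fat. NZO/HlLtJ had 103, 109, 187 and 133 CPM on 10% fat and 101, 87.9, 79.3 and 93.8 on 44% fat, so that every NZO/HlLtJ library on 44% fat was below every one on 10% fat (log2 -0.56, SE 0.34, edgeR adjusted p = 1).

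**Figure D2:**
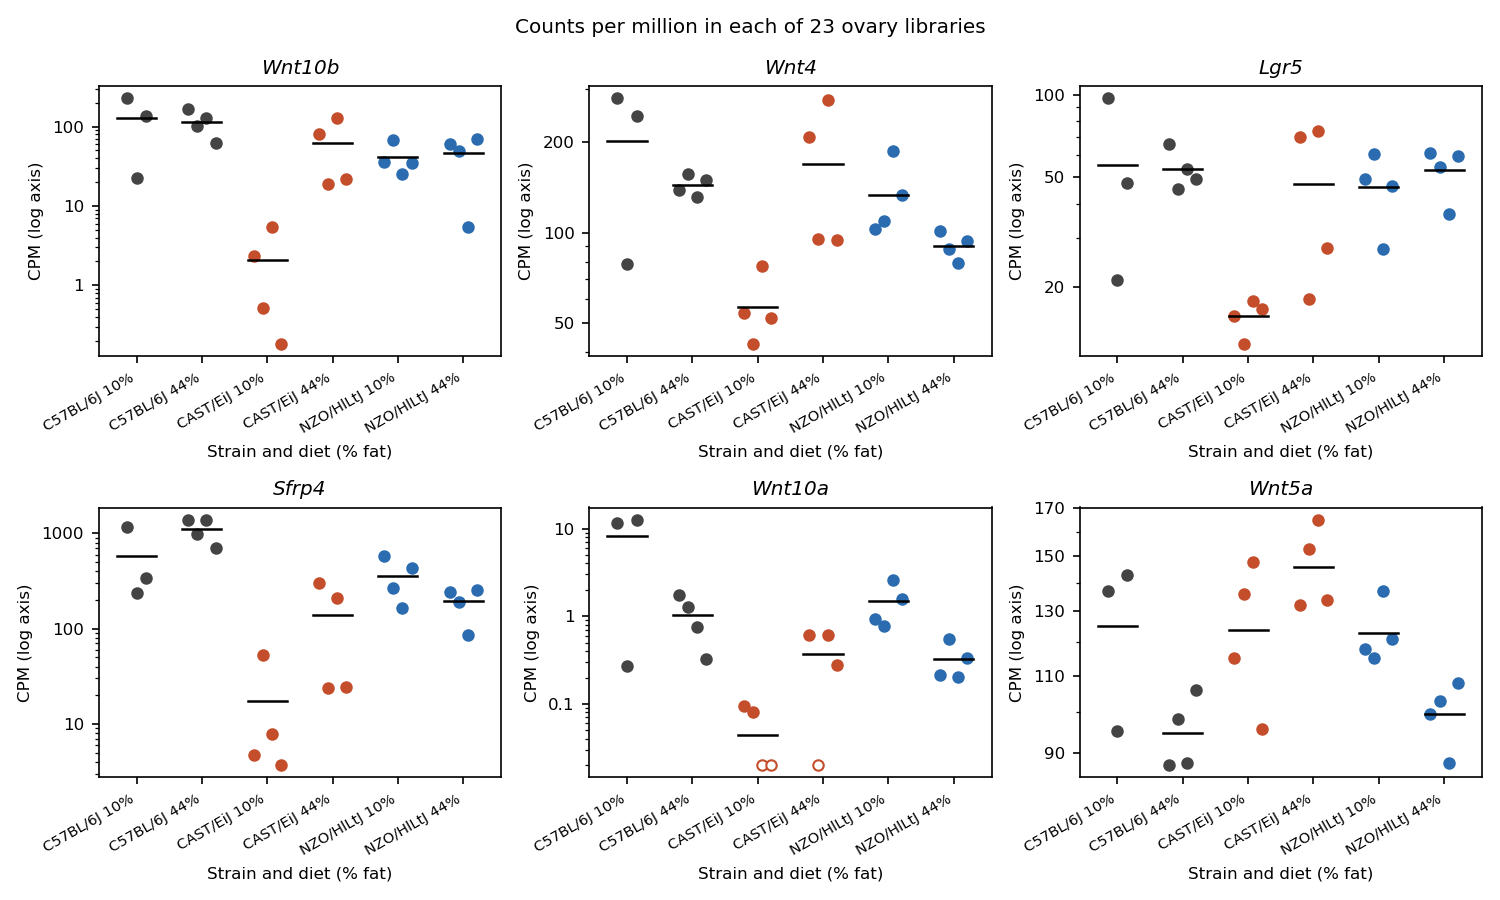
TMM-scaled CPM (log axes) of 6 genes in each of the 23 libraries by strain and diet; points are libraries, black lines are group means, and hollow points at the bottom of the Wnt10a panel are libraries with no count. In CAST/EiJ, Wnt10b runs from 0.184 to 5.36 CPM on 10% fat and from 19.1 to 128 on 44% fat.

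Wnt4 missed the threshold in 22 of 30 other analyses, with adjusted p between 0.000559 and 0.271 over all 30, and Wnt10b in 6 of 30 (1.57e-05 to 0.244), among them the analyses that drop CAST/EiJ 44% fat replicate 3 (log2 4.24), CAST/EiJ 10% fat replicate 2 (4.55), or the pair of libraries with the most oviduct RNA (4.56). Library identifiers fall into series starting with 76, 82 and 90, which no label calls batches, and the ratio of mean CPM on 44% to 10% fat within each in CAST/EiJ was 34.26, 142.8 and 7.81 for Wnt10b and 3.861, 4.362 and 1.458 for Wnt4, each from at most 2 libraries a side.

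Luteal and macrophage markers were among those that moved with the CAST/EiJ diet groups. Summed luteal marker CPM was 4970 to 7920 on 10% fat and 11000 to 12800 on 44% fat. Of the 8 luteal markers tested, 1 passed as higher, Cyp11a1, the side-chain cleavage enzyme of steroid synthesis. None of the 8 was at 0 in any library. The luteal marker score of CAST/EiJ libraries was -0.96, -1.02, -0.48 and -1.22 on 10% fat and 0.04, 0.31, 0.52 and 0.21 on 44% fat, with no overlap. Of the 10 macrophage markers 7 rose, and their summed CPM was 353 to 460 on 10% fat and 673 to 1830 on 44% fat. Ovarian stroma markers summed to 2140 to 2950 CPM on 10% fat and 3230 to 3510 on 44% fat. Theca markers summed to 1100 to 1580 and 1850 to 2130 CPM, though their scores overlapped. All 10 oocyte and all 10 oviduct markers had negative log2 differences. None of the stroma, theca, oocyte or oviduct markers passed in edgeR. The part of these cells in the Wnt10b and Wnt4 results was not tested. The library lowest in Wnt10b was also lowest in luteal score in C57BL/6J and CAST/EiJ on 10% fat and NZO/HlLtJ on 44% fat. In the remaining groups it was not. The NZO/HlLtJ 44% fat library with 5.36 CPM of Wnt10b scored -0.44, against -0.04 to 0.08 in its group. In CAST/EiJ on 44% fat, replicate 2 was lowest in Wnt10b (19.1 CPM) and scored 0.31. Replicate 1 there had the lowest score (0.04) with 79.6 CPM.

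**Figure D3:**
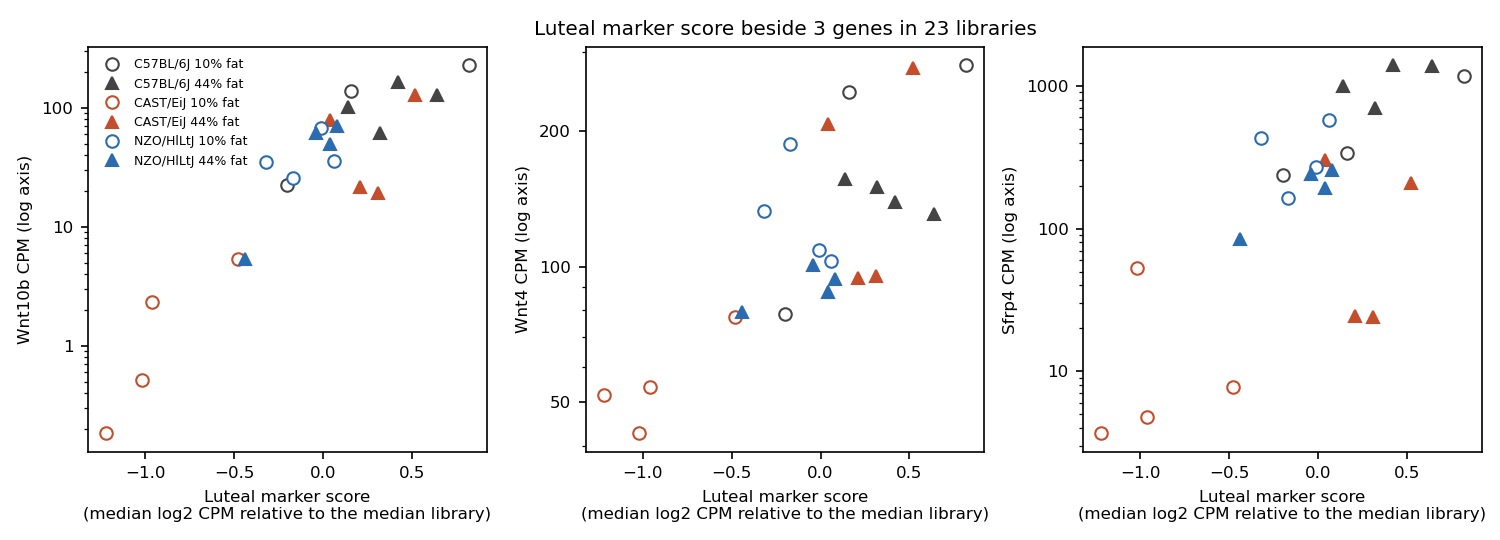
Luteal marker score (x axis, median log2 CPM of 8 markers relative to the median library) beside CPM of Wnt10b, Wnt4 and Sfrp4 (log axes) in 23 libraries; open circles are 10% fat and filled triangles 44% fat, coloured by strain. The 4 CAST/EiJ libraries on 10% fat have scores of -1.22 to -0.48 and Wnt10b of 0.184 to 5.36 CPM.

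In the remaining roles no CAST/EiJ gene passed. The next smallest p-values were those of Lgr5, Wnt16 and Sfrp4. Lgr5 had 15.6, 12.4, 17.7 and 16.6 CPM on 10% fat and 70, 18.1, 73.5 and 27.6 on 44% fat, without overlap (log2 1.60, SE 0.42, edgeR adjusted p = 0.0771). Replicates 1 and 3 on 44% fat were the high ones, as for both ligands. Sfrp4, which binds Wnt ligands, had 4.76, 53.1, 7.75 and 3.68 CPM on 10% fat and 303, 24, 208 and 24.6 on 44% fat (log2 3.02, SE 0.90, edgeR adjusted p = 0.121). Its highest 10% fat value came from the library with the most oviduct and adipocyte RNA, without which Sfrp4 passed (log2 4.69, edgeR adjusted p = 0.0387, with 0.0211 to 0.477 over 30 other analyses). Wnt16, a ligand best known from bone, had 23.7 CPM in that library and 0.0235 to 0.149 in the other 7 of the strain. Its log2 difference of -5.87 (SE 1.68, edgeR adjusted p = 0.112) became -0.02 without that library. Sfrp1 was 52.2, 42, 63.8 and 53.2 CPM on 10% fat and 84, 98.5, 72.8 and 67 on 44% fat, so it was the fourth gene whose diet groups did not overlap. Those 4 genes, all higher on 44% fat, are 10.3% of 39, where 4% of all genes did not overlap in that direction, 1.88% in the other and 5.88% in either. At an unadjusted p under 0.05 edgeR had 11 of the 39 genes and 13.5% of all genes. With DESeq2, 5 of 39 passed (Wnt10b, Wnt4, Lgr5 and Sfrp4 higher, Wnt16 lower), where 3.11% of all genes did.

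No Frizzled receptor, co-receptor or R-spondin passed for diet in CAST/EiJ. The 10 Frizzled genes had a median log2 difference of -0.06, the R-spondins of -0.33 and the secreted inhibitors of 0.51, and 4, 0 and 5 of them were positive. Lrp5 was at -0.04 (SE 0.09) and Lrp6 at -0.10 (SE 0.11) on the log2 scale. Over all 39 genes the median was 0, with 19 positive and 20 negative values, and the median over all genes tested was -0.02. The median size of the difference, regardless of sign, was 0.40 for the 39 genes and 0.17 for all genes.

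**Figure D4:**
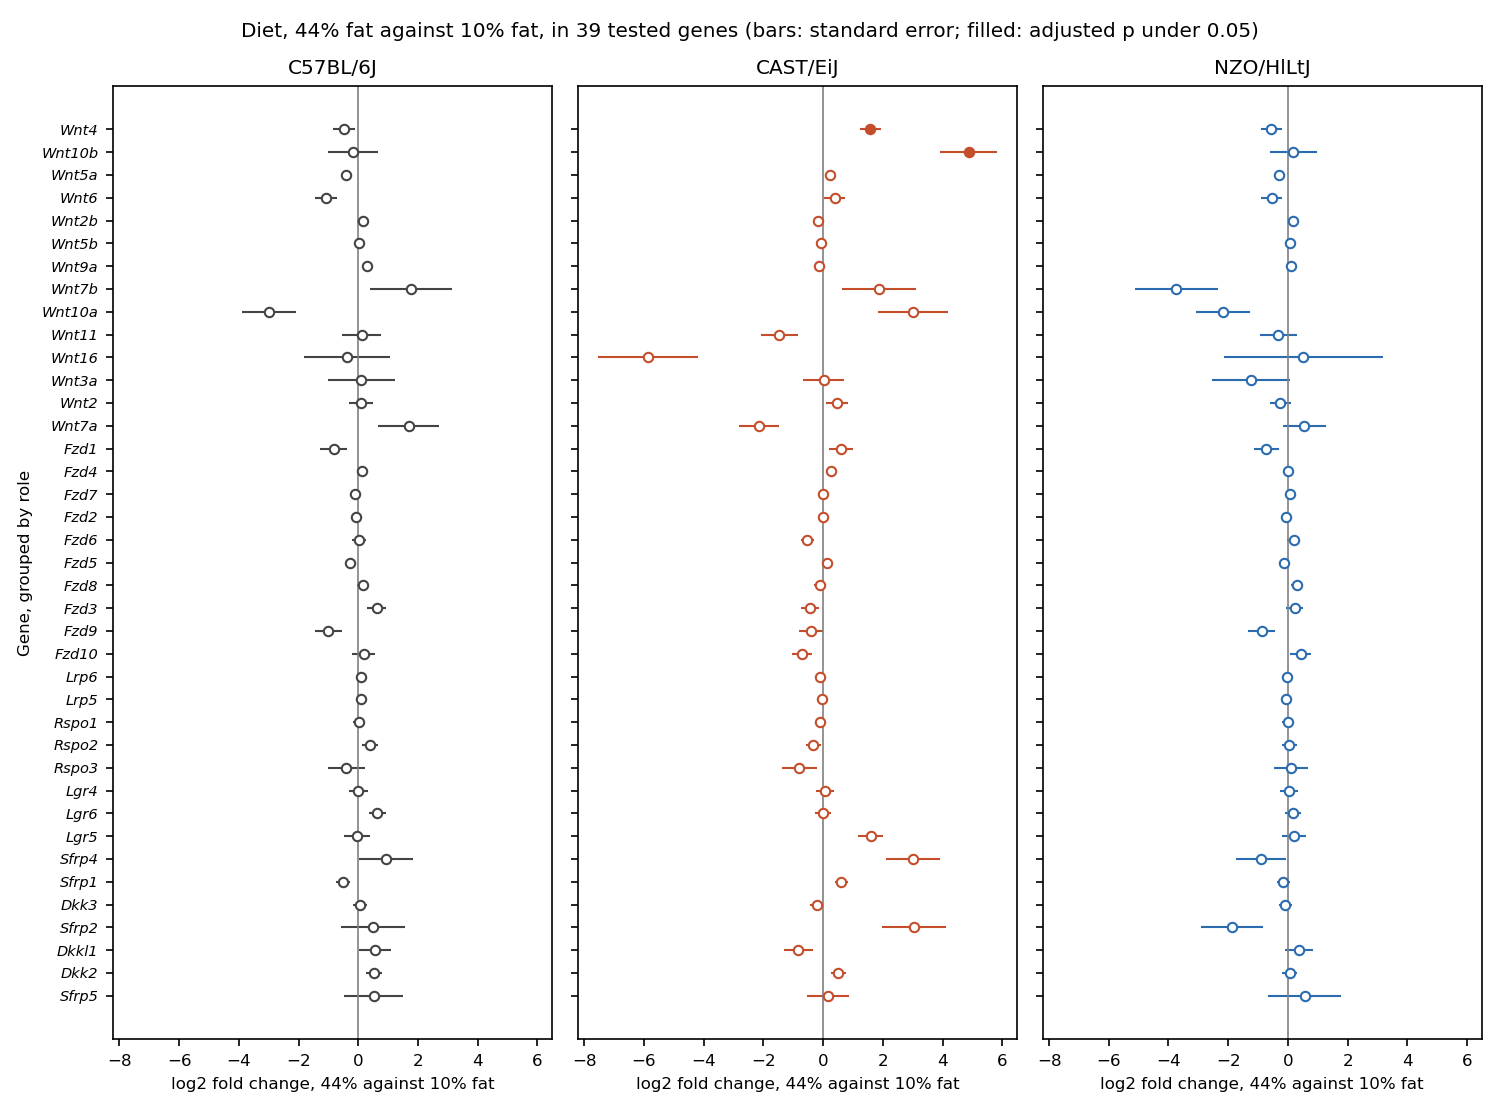
Log2 fold change of 44% against 10% fat in each strain for the 39 tested genes, grouped by role from ligands (top) to secreted inhibitors; bars are standard errors and filled points have an edgeR adjusted p under 0.05. Only Wnt4 (1.58) and Wnt10b (4.87) in CAST/EiJ are filled.

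In C57BL/6J, none of the 39 genes passed for diet in edgeR, as for all genes (0%). At an unadjusted p under 0.05 there were 7 of 39 (8.83% of all genes), and DESeq2 called 0 of 37 with 0.379% of all genes (0.117% higher, 0.262% lower). The 5 smallest p-values were those of Wnt10a, Wnt5a, Wnt6, Sfrp1 and Lgr6. Wnt10a, a ligand known from skin and teeth, had 11.6, 0.27 and 12.6 CPM on 10% fat and 1.76, 1.27, 0.747 and 0.327 on 44% fat (log2 -2.98, SE 0.91, edgeR adjusted p = 0.4). Replicate 2 on 10% fat was the low library. Wnt6 followed the same order within the 10% fat group, with 51, 16.4 and 67.9 CPM, and had 23.5, 19.8, 22.5 and 19.6 on 44% fat (log2 -1.08, SE 0.38, edgeR adjusted p = 0.451). Wnt6 and Wnt10a are neighbours on chromosome 1, on the same strand and 6.19 kb apart. Wnt5a differed by -0.40 (SE 0.14), Sfrp1 by -0.52 (SE 0.23) and Lgr6 by 0.64 (SE 0.29) on the log2 scale, with edgeR adjusted p of 0.449, 0.535 and 0.544. C57BL/6J 10% fat replicate 2 had the highest granulosa marker score of its group. Without that library 4 genes passed as lower on 44% fat: Wnt10a (log2 -3.55), Wnt6 (-1.48), Sfrp1 (-0.83) and Wnt5a (-0.57). In that setting 330 of all genes passed, against 0 with the library in. Markers of surface epithelium and mesothelium were also higher in replicates 1 and 3 than in replicate 2, with summed CPM of 619, 302 and 517 on 10% fat and 306 to 370 on 44% fat. Their scores were 0.66, 0.18 and 0.32 on 10% fat and 0.09 to 0.38 on 44% fat. Sums of stroma markers (4950, 2890 and 3640 CPM) and smooth muscle and pericyte markers (2240, 1320 and 1560) on 10% fat had the same order. Scores kept it for smooth muscle and pericytes (0.96, 0 and 0.36) but not for stroma (-0.02, -0.11 and 0.11). The part of these cells, and that of granulosa cells, in these results was not tested. Diet groups did not overlap for Wnt7a, Wnt9a and Dkk2 (higher) and Fzd7 (lower), 10.3% of 39 against 8.08% of all genes (3.2% higher, 4.88% lower).

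In NZO/HlLtJ, again none of the 39 genes passed in edgeR (0% of all genes), with 3 of 39 at an unadjusted p under 0.05 (3.52% of all genes) and 0 of 45 in DESeq2 (0.0165% of all genes). The smallest p-values were those of Wnt7b, Wnt10a, Wnt5a, Fzd9 and Sfrp2, each with an edgeR adjusted p of 1. Wnt7b had 11.5, 0.504, 0.825 and 11.5 CPM on 10% fat and 0.546, 0.548, 0.516 and 0.222 on 44% fat (log2 -3.74, SE 1.40), so 2 high libraries on 10% fat carried the difference. Wnt10a had 0.942, 0.778, 2.61 and 1.57 CPM on 10% fat and 0.212, 0.548, 0.201 and 0.332 on 44% fat (log2 -2.18, SE 0.91), without overlap. Wnt5a had 118, 115, 137 and 121 CPM on 10% fat and 99.6, 103, 87.5 and 108 on 44% fat (log2 -0.31, SE 0.13), also without overlap. Fzd9 was at -0.87 (SE 0.45) and Sfrp2 at -1.88 (SE 1.03). In all, 5 genes had every 44% fat library below every 10% fat library (Wnt4, Wnt5a, Wnt10a, Fzd1 and Fzd5), 12.8% of 39, where 1.64% of all genes did so in that direction, 1.32% in the other and 2.96% in either.

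Averaged over the strains, none of 39 passed for diet in edgeR (0% of all genes), 4 had an unadjusted p under 0.05 (5.89% of all genes), and DESeq2 called 0 of 40 (0.093% of all genes). Wnt10b was at log2 1.63 (SE 0.495), Fzd9 at -0.76 (SE 0.255), Dkk2 at 0.37 (SE 0.15), Lgr5 at 0.59 (SE 0.24) and Sfrp4 at 1.02 (SE 0.50), with edgeR adjusted p of 0.714, 0.75, 0.803, 0.804 and 0.839.

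Whether the diet response itself differed between strains was tested as the difference of the log2 changes, and these comparisons share libraries with those above. For CAST/EiJ against C57BL/6J none of 39 passed in edgeR, where 0.614% of all genes did (0.565% higher, 0.0495% lower), and 13 of 39 had an unadjusted p under 0.05 (16% of all genes). Wnt4 differed by 2.06 (SE 0.50), Wnt10b by 5.05 (SE 1.24) and Wnt10a by 5.99 (SE 1.48), with edgeR adjusted p of 0.0617, 0.0618 and 0.0624. The Wnt10a value rests on few counts, 4, 3, 0 and 0 in CAST/EiJ libraries on 10% fat and 25, 0, 22 and 11 on 44% fat. DESeq2 called 5 of 39 (Wnt10a, Wnt10b, Wnt4, Wnt5a and Sfrp1), where 4.3% of all genes passed. Without C57BL/6J 10% fat replicate 2, edgeR called 8: those 5, Wnt6 and Lgr5 as higher and Dkkl1 as lower, where 877 of all genes passed against 124 with the library in. Without CAST/EiJ 10% fat replicate 3 it called Wnt10b and Wnt4, and without CAST/EiJ 44% fat replicate 4 or NZO/HlLtJ 10% fat replicate 3 Wnt4.

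For NZO/HlLtJ against CAST/EiJ none passed in edgeR (0.0149% of all genes), with 13 of 39 at an unadjusted p under 0.05 (11.4% of all genes). Wnt4 differed by -2.13 (SE 0.49), Wnt10b by -4.69 (SE 1.21) and Wnt10a by -5.19 (SE 1.48), with edgeR adjusted p of 0.165, 0.179 and 0.225. The Wnt10a value rests on the same few CAST/EiJ counts as above. DESeq2 called 4 of 38 there, Wnt4, Wnt10a, Wnt10b and Sfrp2, where 1.07% of all genes passed. For NZO/HlLtJ against C57BL/6J none passed in edgeR (0% of all genes), 1 of 39 had an unadjusted p under 0.05 (3.92% of all genes), and DESeq2 called 0 of 45 (0.0206%).

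Strain differences, averaged over both diets, passed at shares near those of all genes. Between CAST/EiJ and C57BL/6J, 20 of 39 genes passed (51.3%, against 46.8% of all genes), 9 higher and 11 lower in CAST/EiJ (23.2% and 23.6% of all genes). Between NZO/HlLtJ and C57BL/6J 12 passed (30.8% against 23.9%), 5 higher and 7 lower in NZO/HlLtJ (11.6% and 12.3% of all genes). Between NZO/HlLtJ and CAST/EiJ 19 passed (48.7% against 48.1%), 9 higher and 10 lower in NZO/HlLtJ (23.4% and 24.8% of all genes). How reads of CAST/EiJ and NZO/HlLtJ were matched to a C57BL/6J genome is not given in the sources used here, and its part in these differences was not tested. Luteal markers summed to 11400 to 15200 CPM in C57BL/6J on 10% fat, 4970 to 7920 in CAST/EiJ and 7370 to 9410 in NZO/HlLtJ. On 44% fat these sums were 10400 to 15000, 11000 to 12800 and 7670 to 10700. The part of the cell mixture in the strain differences was not tested either.

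Among ligands, 3 of 14 were higher in CAST/EiJ than in C57BL/6J (Wnt3a, Wnt5a and Wnt7a) and 5 lower (Wnt10a, Wnt10b, Wnt6, Wnt4 and Wnt2b). For Wnt4 and Wnt5a the order of the means depended on diet. Mean Wnt4 in CAST/EiJ and C57BL/6J was 56.48 and 201.4 CPM on 10% fat, but 168.7 and 144.3 on 44% fat. Mean Wnt5a was 123.6 and 125.3 CPM on 10% fat, and 146.2 and 94.75 on 44% fat. Wnt10b had a lowest, median and highest value of 22.6, 127 and 227 CPM over the 7 C57BL/6J libraries, 0.184, 12.2 and 128 over the 8 of CAST/EiJ and 5.36, 42.5 and 69.9 over the 8 of NZO/HlLtJ. The ranges overlapped, with CAST/EiJ lowest by median: it was lower than C57BL/6J by log2 -3.40 (SE 0.64, edgeR adjusted p = 0.000204), and NZO/HlLtJ was 1.92 above it (SE 0.60, edgeR adjusted p = 0.0122). Wnt10a was at 0.27, 1.27 and 12.6 CPM in C57BL/6J, 0, 0.0877 and 0.617 in CAST/EiJ and 0.201, 0.663 and 2.61 in NZO/HlLtJ. The medians had the same order, with log2 differences of -4.43 (SE 0.75) for CAST/EiJ and -2.06 (SE 0.63) for NZO/HlLtJ against C57BL/6J, and 2.37 (SE 0.74) for NZO/HlLtJ against CAST/EiJ. These had edgeR adjusted p of 6.64e-05, 0.0226 and 0.0127. No CAST/EiJ library had more than 25 counts of Wnt10a. Wnt3a, the classical beta-catenin ligand, ran the other way. Its counts were 56 to 129 in 7 CAST/EiJ libraries and 2 in the other, the library high in oviduct markers, and at most 9 in any library of the other strains. On the log2 scale CAST/EiJ was 4.67 above C57BL/6J (SE 0.68, edgeR adjusted p = 1.26e-05) and NZO/HlLtJ was at -5.78 against CAST/EiJ (SE 0.70, edgeR adjusted p = 1.14e-06). Wnt3a met the count filter (minimum count 10) only through CAST/EiJ libraries, where it was high. Its p-values are therefore not independent support for a strain difference. Wnt3a lies 16.2 kb from Wnt9a on chromosome 11, on the opposite strand, and Wnt9a was higher in NZO/HlLtJ than in both other strains (0.49 and 0.33).

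Wnt7a, known from the epithelium of the female reproductive tract, had at most 6 counts in C57BL/6J libraries and 3 to 133 in CAST/EiJ (log2 3.01, SE 0.61, edgeR adjusted p = 0.000388). NZO/HlLtJ was at -1.38 against CAST/EiJ (SE 0.49, edgeR adjusted p = 0.0267), or -0.69 without CAST/EiJ 10% fat replicate 3, which held the 133 counts (edgeR adjusted p = 0.157, with 0.00964 to 0.157 over 30 other analyses). That call was also lost without CAST/EiJ 44% fat replicate 2 (-1.18) or NZO/HlLtJ 10% fat replicate 4 (-1.29), with the identifier series in the model (-1.07) and with limma on the deposited values (-0.21). Wnt16 had at most 4 counts in any NZO/HlLtJ library and 3 to 95 in C57BL/6J (log2 -4.65, SE 1.36, edgeR adjusted p = 0.0172). Without C57BL/6J 10% fat replicate 1 or 44% fat replicate 1, the 2 highest Wnt16 libraries of that strain, the call was lost (log2 -4.01 and -3.86). Against CAST/EiJ the -4.64 for Wnt16 (SE 1.47, edgeR adjusted p = 0.0136) became -1.70 without the library high in oviduct markers. Wnt2b, at 23.2, 37.7 and 44.4 CPM in C57BL/6J, 17.6, 23.9 and 25.5 in CAST/EiJ and 12.7, 18.6 and 22.3 in NZO/HlLtJ, passed in all 3 comparisons, though against CAST/EiJ the NZO/HlLtJ call was lost in 18 of 30 other analyses, and every NZO/HlLtJ library was below every C57BL/6J library.

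Receptors passed in both directions. In CAST/EiJ 4 of the 10 Frizzled genes were higher than in C57BL/6J (Fzd2, Fzd3, Fzd9 and Fzd10, log2 0.65 to 0.97) and 2 were lower (Fzd4 and Fzd5, -0.34 and -0.53). Fzd4, also a receptor for Norrin and known to be needed for corpus luteum function, was 80.5, 91.9 and 120 CPM in C57BL/6J and 50.2, 63.7 and 74.4 in NZO/HlLtJ, without overlap (log2 -0.57, SE 0.10, edgeR adjusted p = 0.000344). NZO/HlLtJ was also below C57BL/6J in Fzd1 (-0.997) and Fzd5 (-0.31) and above it in Fzd3 (0.63). Against CAST/EiJ it was higher in Fzd6 (0.60) and Fzd5 (0.22) and lower in Fzd2 (-0.41), Fzd7 (-0.14) and Fzd9 (-1.52, SE 0.31, edgeR adjusted p = 0.000385). Of these, the calls lost most often over 30 other analyses were Fzd3 against C57BL/6J (17) and Fzd5 (12) and Fzd7 (7) against CAST/EiJ. The co-receptors did not pass in any strain comparison: the log2 differences of Lrp5 were -0.01, -0.10 and -0.10 and those of Lrp6 -0.08, 0.05 and 0.13, with SE of 0.07 and 0.08.

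Where R-spondins passed against C57BL/6J they were higher in the other strain. Rspo1, the ovary-determining R-spondin, was 5.18, 7.11 and 9.1 CPM in C57BL/6J, 5.4, 7.46 and 8.59 in CAST/EiJ and 8.87, 9.43 and 10.6 in NZO/HlLtJ. It was higher in NZO/HlLtJ than in C57BL/6J (log2 0.51, SE 0.13) and than in CAST/EiJ (0.45, SE 0.12), with edgeR adjusted p of 0.00619 and 0.00484. Rspo2 was higher in CAST/EiJ (0.52, SE 0.19) and NZO/HlLtJ (0.69, SE 0.19) than in C57BL/6J. The first of these calls was lost in 7 of 30 other analyses, among them those with the identifier series in the model, without C57BL/6J 10% fat replicate 1 or 44% fat replicate 3, and without CAST/EiJ 10% fat replicate 4 or 44% fat replicate 2 or 4. Of the R-spondin receptors, Lgr5 and Lgr6 were lower in CAST/EiJ than in C57BL/6J (-1.001, SE 0.30, and -0.72, SE 0.195), and Lgr5 was higher in NZO/HlLtJ than in CAST/EiJ (0.86, SE 0.29). Lgr5 was 21.2, 49.4 and 96.9 CPM in C57BL/6J, 12.4, 17.9 and 73.5 in CAST/EiJ and 27.4, 52 and 61.4 in NZO/HlLtJ. By diet, its means in these strains were 55.19, 15.59 and 46.07 CPM on 10% fat and 53.62, 47.33 and 53.11 on 44% fat. Without C57BL/6J 10% fat replicate 1, which had the 96.9 CPM, the difference of Lgr5 between CAST/EiJ and C57BL/6J missed the threshold (-0.65, edgeR adjusted p = 0.0722, with 0.00164 to 0.0722 over 30 other analyses), as did that of Wnt4.

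Among secreted inhibitors, Sfrp4 was 238, 996 and 1390 CPM in C57BL/6J, 3.68, 24.3 and 303 in CAST/EiJ and 85, 248 and 574 in NZO/HlLtJ. CAST/EiJ was below C57BL/6J (log2 -4.03, SE 0.67, edgeR adjusted p = 6.08e-05), and NZO/HlLtJ was 2.42 above CAST/EiJ (SE 0.62, edgeR adjusted p = 0.00313). Only 1 of the 8 CAST/EiJ libraries, on 44% fat, exceeded the lowest C57BL/6J library. Sfrp1 was 76.9, 110 and 196 CPM in C57BL/6J, 42, 65.4 and 98.5 in CAST/EiJ and 111, 152 and 166 in NZO/HlLtJ. It was lower in CAST/EiJ than in C57BL/6J (log2 -0.92, SE 0.16, edgeR adjusted p = 6.74e-05), and every NZO/HlLtJ library was above every CAST/EiJ library (1.13, SE 0.15, edgeR adjusted p = 4.39e-06). Sfrp5, known from fat tissue, had 5 to 32 counts in CAST/EiJ libraries, 0 to 7 in C57BL/6J and 0 to 2 in NZO/HlLtJ (log2 2.24, SE 0.60, for CAST/EiJ against C57BL/6J and -3.88, SE 0.66, for NZO/HlLtJ against CAST/EiJ, with edgeR adjusted p of 0.00439 and 6.53e-05). Sfrp5 too met the count filter only through CAST/EiJ libraries, so its p-values are not independent support either. In 4 and 5 of 30 other analyses Sfrp5 was too scarce to be tested. Dkkl1, a Dickkopf-like protein known from testis, was higher in NZO/HlLtJ than in C57BL/6J (1.15, SE 0.36, edgeR adjusted p = 0.0265), and Dkk3 was lower in NZO/HlLtJ than in C57BL/6J (-0.47) and CAST/EiJ (-0.65).

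**Figure D5:**
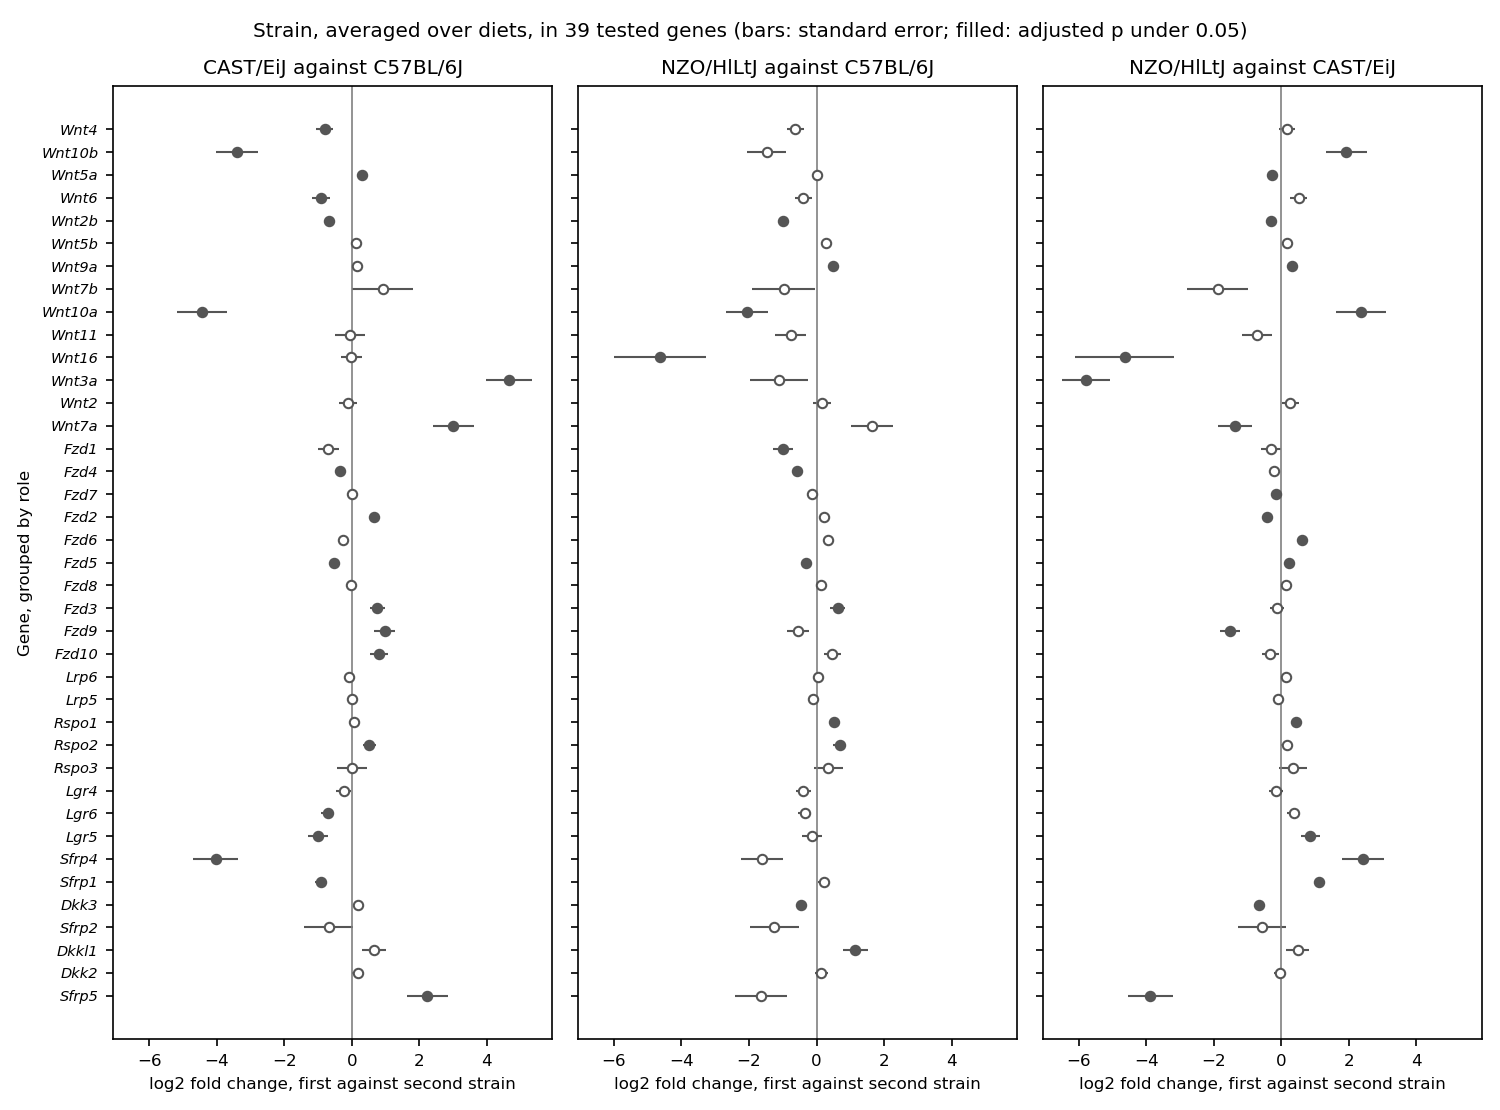
Log2 differences between strains, averaged over diets, for the 39 tested genes grouped by role from ligands (top) to secreted inhibitors; bars are standard errors and filled points have an edgeR adjusted p under 0.05. Wnt3a (4.67) and Wnt10a (-4.43) lie at opposite ends of CAST/EiJ against C57BL/6J, while Lrp5 and Lrp6 are near 0 in all 3 panels.

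The count between NZO/HlLtJ and C57BL/6J moved most with single libraries: without C57BL/6J 10% fat replicate 1 it was 5 (lost were Dkk3, Dkkl1, Fzd1, Fzd3, Fzd5, Wnt10a and Wnt16), and without C57BL/6J 10% fat replicate 2 it was 16. Dkkl1 and Wnt10a also missed the threshold there without C57BL/6J 10% fat replicate 3 (0.97 and -1.83), and Dkkl1 without NZO/HlLtJ 44% fat replicate 3 (0.93). With the identifier series in the model the count was 8, without Dkk3, Dkkl1 (1.07), Fzd3 and Wnt10a (-1.85), and Dkk3 was lost in 10 of 30 other analyses. Antisense or other genes overlap Wnt2b, Wnt5a, Wnt5b, Wnt6, Wnt7b, Lgr5, Rspo1, Sfrp2 and Fzd5 among others, and whether the counting used strand is not given in the sources used here, so reads of such pairs cannot be told apart.

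Other genes of the pathway were read from 4 lists. In none of the 7 comparisons that involve diet did a gene of any list pass in edgeR. At an unadjusted p under 0.05 it had 15, 12 and 3 of 81 list entries for diet in C57BL/6J, CAST/EiJ and NZO/HlLtJ, 10 for diet averaged, and 19, 2 and 7 for the differences in response (CAST/EiJ against C57BL/6J, NZO/HlLtJ against C57BL/6J and NZO/HlLtJ against CAST/EiJ), a gene on several lists counting in each. Beside all genes these are 18.5% against 8.83%, 14.8% against 13.5% and 3.7% against 3.52% for diet in each strain, 12.3% against 5.89% averaged, and 23.5% against 16%, 2.47% against 3.92% and 8.64% against 11.4% for the response differences. DESeq2 called Axin2 and Lef1 for diet in CAST/EiJ, those and Tmem59 and Tle4 for the response difference between CAST/EiJ and C57BL/6J, and 0 in the other 5. In CAST/EiJ the smallest p-values for diet over all 4 lists were those of Lef1 and Axin2 (named after their values were seen), a TCF/LEF factor and a feedback inhibitor that is a common readout of beta-catenin activity. Axin2 had 22, 32, 27.6 and 25.9 CPM on 10% fat and 52.2, 33.8, 47 and 38.1 on 44% fat (1.59-fold, edgeR adjusted p = 0.0977), with no overlap. Lef1 had 2.42, 2.72, 2.28 and 3.39 CPM on 10% fat and 6.57, 3.93, 3.93 and 4.22 on 44% fat (1.73-fold, edgeR adjusted p = 0.0944), also with no overlap. Over all genes, 4% had no overlap in that direction, 1.88% in the other and 5.88% in either. Next by p among the target genes were Apcdd1, which went the other way (log2 -0.62, edgeR unadjusted p = 0.033), and Nkd2, which was higher (log2 0.57, edgeR unadjusted p = 0.0479). The 18 beta-catenin target genes tested had a median log2 diet difference of 0.13 in CAST/EiJ, with 12 positive.

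Of 21 genes for Wnt secretion and surface regulation, 9 were higher and 6 lower in CAST/EiJ than in C57BL/6J, 1 and 5 in NZO/HlLtJ than in C57BL/6J, and 5 and 9 in NZO/HlLtJ than in CAST/EiJ. That is 71.4%, 28.6% and 66.7% of the list, where 46.8%, 23.9% and 48.1% of all genes passed. Frzb, a further secreted Frizzled-related protein, was 21.7 to 48.3 CPM in CAST/EiJ, 4.98 to 13.7 in C57BL/6J and 4.92 to 10.9 in NZO/HlLtJ (log2 2.02 and -2.44). Gpc3, a glypican that binds Wnt, was 79.2 to 121 CPM in CAST/EiJ and at most 62 in the others (1.06 and -0.99). Notum, an enzyme that inactivates Wnt and that is on the target list too, was 1.75 above C57BL/6J in CAST/EiJ and at -2.95 in NZO/HlLtJ against CAST/EiJ. Draxin, a Dickkopf-related axon guidance protein, was higher in NZO/HlLtJ than in C57BL/6J (2.32, edgeR adjusted p = 0.000127).

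Of 18 beta-catenin target genes, 4 were higher and 3 lower in CAST/EiJ than in C57BL/6J, 0 and 3 in NZO/HlLtJ than in C57BL/6J, and 3 and 6 in NZO/HlLtJ than in CAST/EiJ. In either direction these are 38.9%, 16.7% and 50% of the list, against 46.8%, 23.9% and 48.1% of all genes. Nkd2, a feedback inhibitor, was 3.3 to 6.8 CPM in NZO/HlLtJ, 7.9 to 22.4 in C57BL/6J and 13.8 to 39.1 in CAST/EiJ, and Axin2 was lower in CAST/EiJ than in C57BL/6J (-0.66) and higher in NZO/HlLtJ than in CAST/EiJ (0.41). Axin2 means in C57BL/6J, CAST/EiJ and NZO/HlLtJ were 63.24, 26.86 and 48.21 CPM on 10% fat and 45.42, 42.78 and 42.05 on 44% fat. Of 26 intracellular components 9, 4 and 5 passed in these comparisons in either direction (34.6%, 15.4% and 19.2%), led by Tle4, a co-repressor (0.52 in CAST/EiJ against C57BL/6J), Tle3 (-0.41 in NZO/HlLtJ against C57BL/6J) and Apc2 (0.84 in NZO/HlLtJ against CAST/EiJ). Of 16 planar cell polarity components 7, 3 and 8 passed (43.8%, 18.8% and 50%), led by Celsr2 (0.69), Vangl1 (-0.32) and Prickle4 (-2.33).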

How the data were processed

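The authors deposited one table of expected counts (per the file headers, gene rows with symbols and positions, 27.4% of values not whole) and, for the same 23 libraries, variance-stabilised log2 values. Per the submitters' processing notes GRCm38 and DESeq2 were used. The aligner, counter, annotation and use of strand are not given in the sources used here. Per the labels' protocols, polyA RNA was sequenced as read pairs.

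The 45 genes and all lists were chosen with earlier results of these data known. Counts were rounded, filtered with filterByExpr by group (minimum count 10, minimum total 15) and scaled by TMM. The fit was edgeR 4.0.16 (robust glmQLFit, 6 group means, R 4.3.3), adjusted by Benjamini-Hochberg with a threshold of 0.05. The common biological coefficient of variation was 0.268. All 33 pairs of libraries within groups differed beyond counting noise (chi-square per degree of freedom 12.4 to 219.7). Log2 CPM used a prior count of 2. CPM per kilobase used the exon length of each gene. Named were genes past the threshold for diet, past it with a log2 difference of at least 1 between strains, the 2 highest per role, and the 5 smallest p per diet comparison, plus up to 4 per list. Genes named beyond this rule (Wnt2b, Wnt9a, Dkk3 and several Frizzled genes among the strain results) were named after their values were seen. Alternatives were DESeq2 1.42.0, limma 3.58.1 on the deposited values, RLE scaling, no filter, the identifier series, only the groups compared, and leaving out libraries. The edgeR and DESeq2 steps were run on simulated counts with the common biological coefficient of variation for every gene, and limma on log2 CPM of those counts. Only edgeR had set limits to meet there. Precision is limited by 3 or 4 libraries a group.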

Additional observations from a re-analysis of the deposited data

Results flagged for a closer look

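In 4-library groups, log2 CPM of 14 genes named through diet was searched for single libraries far from the other 3 (Dixon's criterion, the gap to the nearest library over the range), and 6 were found in 70 groups. Chance alone marks about 1 group in 20. Wnt10b, the ligand that rose in CAST/EiJ, was 5.36 CPM in NZO/HlLtJ 44% fat replicate 3 against 49.5 to 69.9 in the others, and that library had the lowest luteal marker score of its group (-0.44). Wnt6 was 54.1 CPM in NZO/HlLtJ 10% fat replicate 3 against 18.6 to 21.5, where its neighbour Wnt10a was also highest (2.61 CPM). Dkk2 was 0.977 CPM in that same library against 2.34 to 2.49. Sfrp2 was 96.1 CPM in CAST/EiJ 44% fat replicate 1 against 2.55 to 4.49, and Wnt7b was 43.5 CPM there against 0.884 to 1.6. Wnt7b was 0.222 CPM in NZO/HlLtJ 44% fat replicate 4 against 0.516 to 0.548.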

How the results depend on the processing

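For diet in CAST/EiJ 2 Wnt genes passed in the main analysis. The count was 5 with DESeq2, 1 without a count filter, 1 without both libraries highest in oviduct markers, and 0 once the identifier series entered the model, with limma on the authors' variance-stabilised values or with the CAST/EiJ groups alone, and it ran from 0 to 3 as each library was left out. Without both oviduct libraries the 1 gene was Sfrp4. The difference in diet response between CAST/EiJ and C57BL/6J (main count 0) had 5 with DESeq2 and 0 to 8 as each library was left out, and that between NZO/HlLtJ and CAST/EiJ (0) had 4 with DESeq2. Diet in C57BL/6J (0) gave 0 to 4 as each library was left out. Strain counts then ran from 17 to 23 for CAST/EiJ against C57BL/6J, 5 to 16 for NZO/HlLtJ against C57BL/6J and 16 to 21 for NZO/HlLtJ against CAST/EiJ. No direction reversed among the named genes in any alternative, and of their values past or short of the threshold 49 lost and 23 gained the call while 1256 kept their side. Log2 values from the variance-stabilised table are compressed for scarce genes (Wnt16 at -0.54 against -4.65 for NZO/HlLtJ against C57BL/6J). The cause of these changes was not tested.

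Over all genes, diet in CAST/EiJ gave 126 in the main analysis, 606 with DESeq2, 66 with the identifier series, 76 with limma, 0 with the groups alone and 28 to 220 as each library was left out. The response difference between CAST/EiJ and C57BL/6J gave 124, and 859, 78, 49, 57 and 30 with DESeq2, no filter, the identifier series, limma and without both oviduct libraries, and 8 to 877 as each library was left out. That between NZO/HlLtJ and CAST/EiJ gave 3, and 194, 0 and 5 with DESeq2, the identifier series and without both oviduct libraries. Diet in C57BL/6J reached 330 genes with a library left out. DESeq2 gave 65, 4, 19 and 5 where edgeR gave 0 (diet in C57BL/6J, in NZO/HlLtJ, averaged, and NZO/HlLtJ against C57BL/6J in response). No paired analysis was possible because replicate numbers only follow the order of deposit and pair no libraries. Counts under about 10 per library limit Wnt3a, Wnt7a, Wnt16 and Sfrp5 and, in CAST/EiJ on 10% fat, Wnt10a.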
